A study of Rattus norvegicus with 20 samples.

Results

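The cluster of miR-143 and miR-145 is a pair of microRNA (miRNA) hairpins, Mir143 and Mir145, whose 4 mature products were followed here in the anterodorsal part (adBNST) of a forebrain nucleus, the bed nucleus of the stria terminalis, of rats. The members were chosen by name (rno-miR-143-3p, rno-miR-143-5p, rno-miR-145-5p, and rno-miR-145-3p, written below without the prefix), and the reads of each name were summed in each library. All 4 were found among 617 miRNAs with reads, and all 4 were among the 500 miRNAs that had at least 10 reads in at least 5 libraries and were tested. Small RNA was sequenced from both adBNST of 20 Sprague-Dawley rats, 10 males and 10 females, and 5 of either sex belonged to each kind of housing. All rats were weaned on postnatal day 21. Socially isolated (SI) rats then lived alone for 6 weeks, and group-housed (GH) rats lived in cages of same-sex littermates, so that GH served as the control. All were tested on the elevated plus maze at 9 weeks of age before tissue was taken. The females sequenced had been picked for high RNA integrity and for a spread of estradiol levels. Whether any GH rats were cage mates is not given in the sources used here.

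The products of this cluster are best known from vascular smooth muscle cells and pericytes, the mural cells that wrap arteries and capillaries, where they favor the contractile, differentiated state and restrain genes of proliferation and of the cytoskeleton. A miRNA guides the Argonaute protein to messenger RNAs through its seed, bases 2 to 8, and the hairpin yields a 5p and a 3p arm of which one usually prevails. In brain tissue, reads of the cluster are commonly taken as a mark of blood vessels. The libraries hold no messenger RNA, so a mural origin was not checked against messenger RNA markers here.

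In the RefSeq annotation of GRCr8, both hairpins lie on the minus strand of chromosome 18, Mir145 at chr18:57369983-57370070 and Mir143 at chr18:57371349-57371453, with 1278 bases between them. Both lie within the span of Carmn (chr18:57368191-57389112), a long noncoding RNA gene that hosts the cluster. The mature sequences are shown with the seed in capitals, since the seeds set the members apart and since many of the reads of 1 member start outside its annotated position.
miR-143-3p (chr18:57371373-57371394): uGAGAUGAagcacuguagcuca
miR-143-5p (chr18:57371408-57371428): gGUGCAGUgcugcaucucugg
miR-145-5p (chr18:57370033-57370055): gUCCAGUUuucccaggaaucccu
miR-145-3p (chr18:57369997-57370017): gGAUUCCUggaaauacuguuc
The 4 seeds differ from one another, and none of them was shared by another of the 693 mature miRNA names in the RefSeq table. No read of a member was assigned to a second miRNA, so sharing of reads with similar miRNAs does not enter their counts.

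The number of miRNA reads per library was between 3428930 and 11383055, with group medians of 4983188 in GH males, 7290553 in SI males, 5276646 in GH females, and 6998674 in SI females. Levels are given as RPM, the reads of a miRNA per 1000000 miRNA reads of its library after scaling the library with the TMM factor of edgeR, which ranged from 0.831 (I16F) to 1.26 (G17F). Rats are named by their labels, G for GH and I for SI, with the animal number and sex. For the rats labelled I17M and I17F, the labels and the names of the deposited files give opposite sexes. Both were placed by their labels, and the fold changes of miR-143-3p, the 2 ratios between members, and the shares of miR-143-3p forms are also given with the 2 libraries exchanged or left out. The SI female I16F stood apart from the other rats, with the lowest level of miR-143-3p of all 20.

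miR-143-3p was the abundant product. It ranked 24 of 500 in mean level (9927 RPM over 20 rats), between miR-7b (10634 RPM) and miR-98-5p (9261 RPM). miR-145-5p ranked 214 (114 RPM), between miR-1843b-5p (115 RPM) and miR-194-5p (114 RPM). miR-145-3p ranked 235 (79.3 RPM), between miR-146a-5p (80.8 RPM) and let-7c-2-3p (78.4 RPM). These neighbors differed from the members by less than the spread between rats, since single rats ran from 2032 to 19543.5 RPM for miR-143-3p, from 18.4 to 196 RPM for miR-145-5p, and from 40.2 to 120 RPM for miR-145-3p. miR-143-5p ranked 476 and had 202 reads in all. Counts of different miRNAs also differ in how well each sequence is ligated and amplified, so these ranks are ranks of reads.

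Together the 4 members made up 0.958 to 1.64% of the miRNA reads in males kept in groups and 0.413 to 0.635% in isolated males. In females the share was 1.22 to 2.40% in GH rats and 0.176 to 1.44% in SI rats. The SI males lay below every GH male, whereas the SI females overlapped the GH females. Nearly all of these reads were of miR-143-3p, with 1231674 over all libraries, against 14259 of miR-145-5p and 10172 of miR-145-3p. The sum therefore follows miR-143-3p, and the other members did not separate the males. Of single miRNAs, 69 of 500 (13.8%) separated the males in RPM, in either direction.

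**Figure D1:**
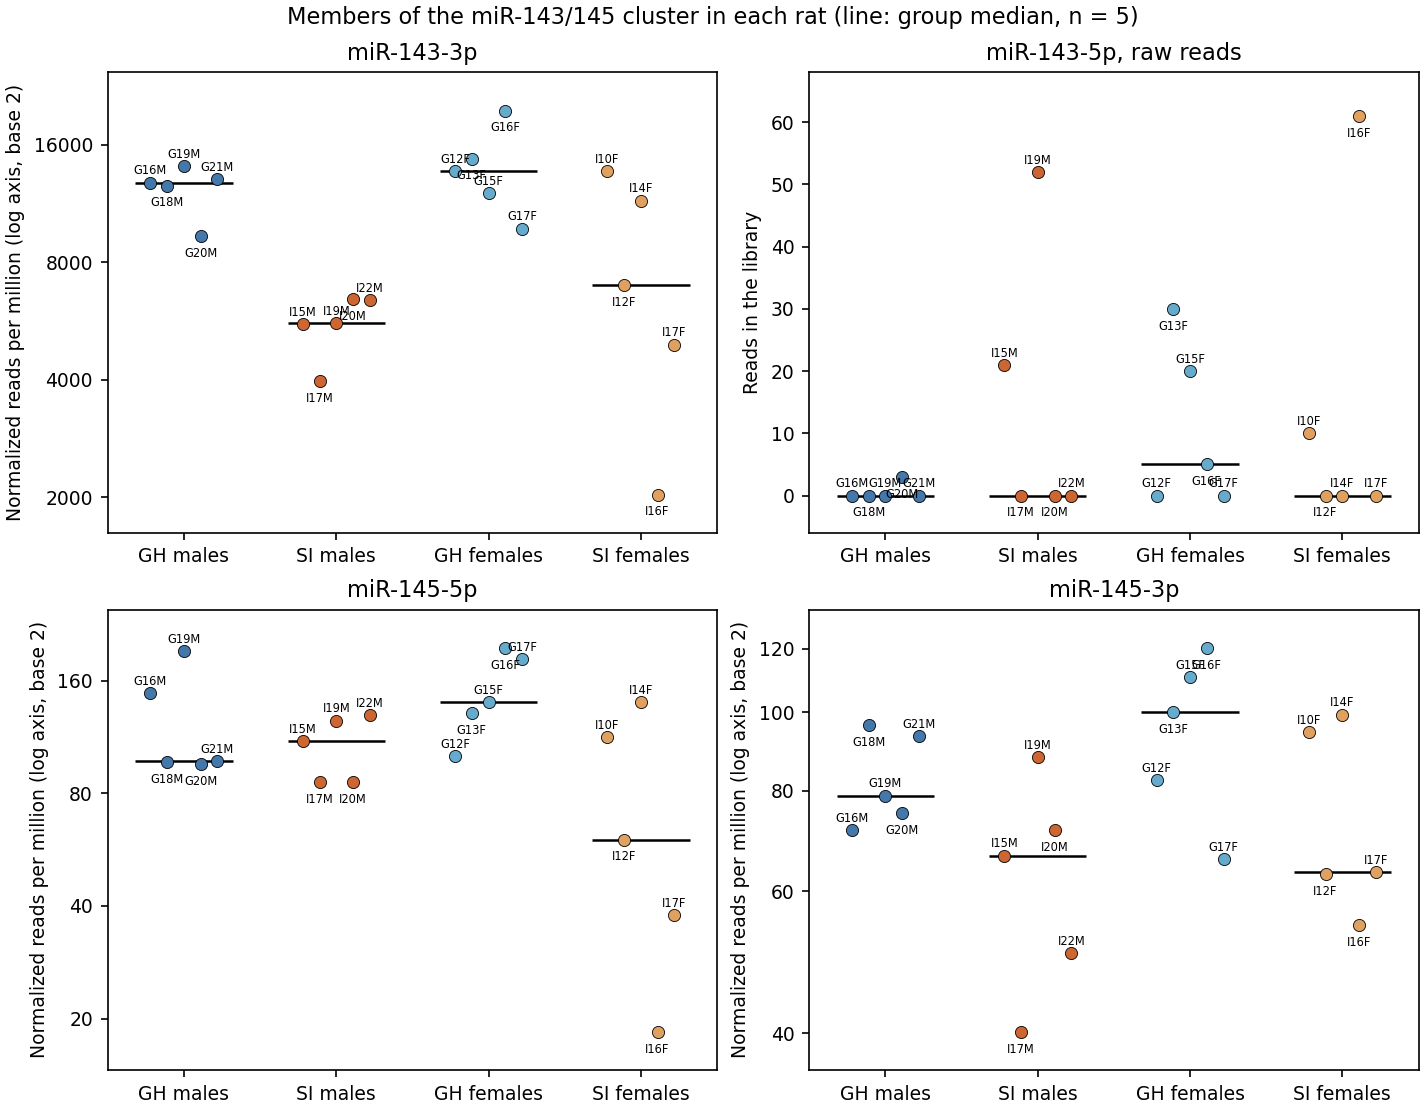
Each point is 1 rat, labelled with its name, in the 4 groups on the horizontal axis, and each line is the median of 5 rats; the vertical axes give RPM on a log axis with base 2, except for miR-143-5p, which is in raw reads. For miR-143-3p the SI males, at 3964 to 6425 RPM, lie below the GH males, at 9306 to 14105.5 RPM, and the SI females spread from 2032 to 13661 RPM.

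miR-143-3p, the guide strand of Mir143, was lower in SI than in GH rats. In GH males its level was 12788, 14105.5, 12565, 9306, and 13066.5 RPM (G16M, G19M, G18M, G20M, and G21M). In SI males it was 5552, 5571, 6400, 3964, and 6425 RPM (I15M, I19M, I22M, I17M, and I20M). The highest SI male was below the lowest GH male, and the groups did not overlap. Non-overlap in either direction was found for 69 of the 500 miRNAs in males, or 13.8%. The fitted level in SI males was 0.451 of that in GH males, with a fitted log2 ratio of −1.15 (standard error 0.33, adjusted p = 0.045, edgeR's quasi-likelihood test with Benjamini-Hochberg adjustment). It was 1 member of 4 called in males, where 20 of 500 miRNAs (4%) were called, 13 lower and 7 higher.

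This call in males lies at the threshold. It was lost when any 1 of the 10 males was left out (log2 fold changes from −1.27 to −1.08, highest adjusted p = 0.11), with the sign unchanged in each of these fits. With the I17 libraries exchanged, the log2 fold change was −1.10 (adjusted p = 0.074), and with both left out it was −1.08 (adjusted p = 0.092, edgeR in both cases). DESeq2's Wald test gave −1.16 (adjusted p = 0.0061) with the rats as labelled. In a punch of tissue, fewer cells that make a miRNA and less of it per cell cannot be told apart.

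In GH females the level of miR-143-3p was 12017, 13673, 19543.5, 14732, and 9747 RPM (G15F, G12F, G16F, G13F, and G17F). In SI females it was 11493, 13661, 4921, 6975, and 2032 RPM (I14F, I10F, I17F, I12F, and I16F). The SI rats I17F, I12F, and I16F were below the lowest GH female, whereas I14F and I10F lay within the range of the GH group. The standard deviation on the log2 scale was 1.10 in SI females, against 0.37 in GH females, 0.28 in SI males, and 0.23 in GH males (n = 5 in each). The log2 fold change in females was −0.83 (standard error 0.32, adjusted p = 0.12, edgeR), below 0 but not called. DESeq2's Wald test gave −0.85 (adjusted p = 0.049). Without I16F the edgeR value was −0.57 (adjusted p = 0.24), and without I10F it was −1.11 (adjusted p = 0.036).

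No member was called in females by edgeR, where 2 of 500 miRNAs (0.4%) were called and 104 had an unadjusted p under 0.05. miR-143-3p and miR-145-5p were among the latter. By DESeq2, 2 of the 3 members with an adjusted p were called in females, where 67 of 374 miRNAs (17.9%) were called. In males DESeq2 called 1 of 3 members, with 60 of 303 miRNAs (19.8%) called. No member separated the female groups, which 10 of 500 miRNAs (2%) did.

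Over both sexes, as the mean of the housing effects in males and females, miR-143-3p had a log2 change of −0.99 in SI rats (standard error 0.23, adjusted p = 0.0059, edgeR), or 0.503 of the GH level. Of the 10 SI rats, 8 were below the lowest of the 10 GH rats. This call held with the I17 libraries exchanged (−0.98, adjusted p = 0.0077), with both left out (−0.88, adjusted p = 0.028), and with each rat left out in turn (−1.14 to −0.88, adjusted p from 0.0011 to 0.016). It was lost in fits of only the 10 rats whose animal number occurs in both kinds of housing. The log2 change there was −1.25 without the number in the model (adjusted p = 0.065) and −1.28 with it (adjusted p = 0.19, edgeR in both). miR-143-3p was the 1 member of 4 called, with 88 of 500 miRNAs (17.6%) called in this comparison, and DESeq2 called 2 of 3 members with 132 of 374 (35.3%) called. No miRNA separated all 10 SI from all 10 GH rats (0%). The median log2 fold change of all 500 miRNAs was −0.0046, and 3 of the 4 members were below 0.

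The housing effects on miR-143-3p did not pass the test of a difference between the sexes. The interaction was 0.31 on the log2 scale (standard error 0.46, adjusted p = 0.95, edgeR), with an approximate 95% interval from −0.58 to 1.2. No member passed this test, in which 2 of 500 miRNAs (0.4%) were called. The GH females and GH males did not pass the test of a difference either, with a log2 difference of 0.17 (standard error 0.32, adjusted p = 0.996, edgeR) and an approximate 95% interval from −0.46 to 0.80. Between the sexes in GH rats edgeR called 0 of 500 miRNAs (0%), with 12 at an unadjusted p under 0.05, and DESeq2 called 5 of 586, none of them a member.

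**Figure D2:**
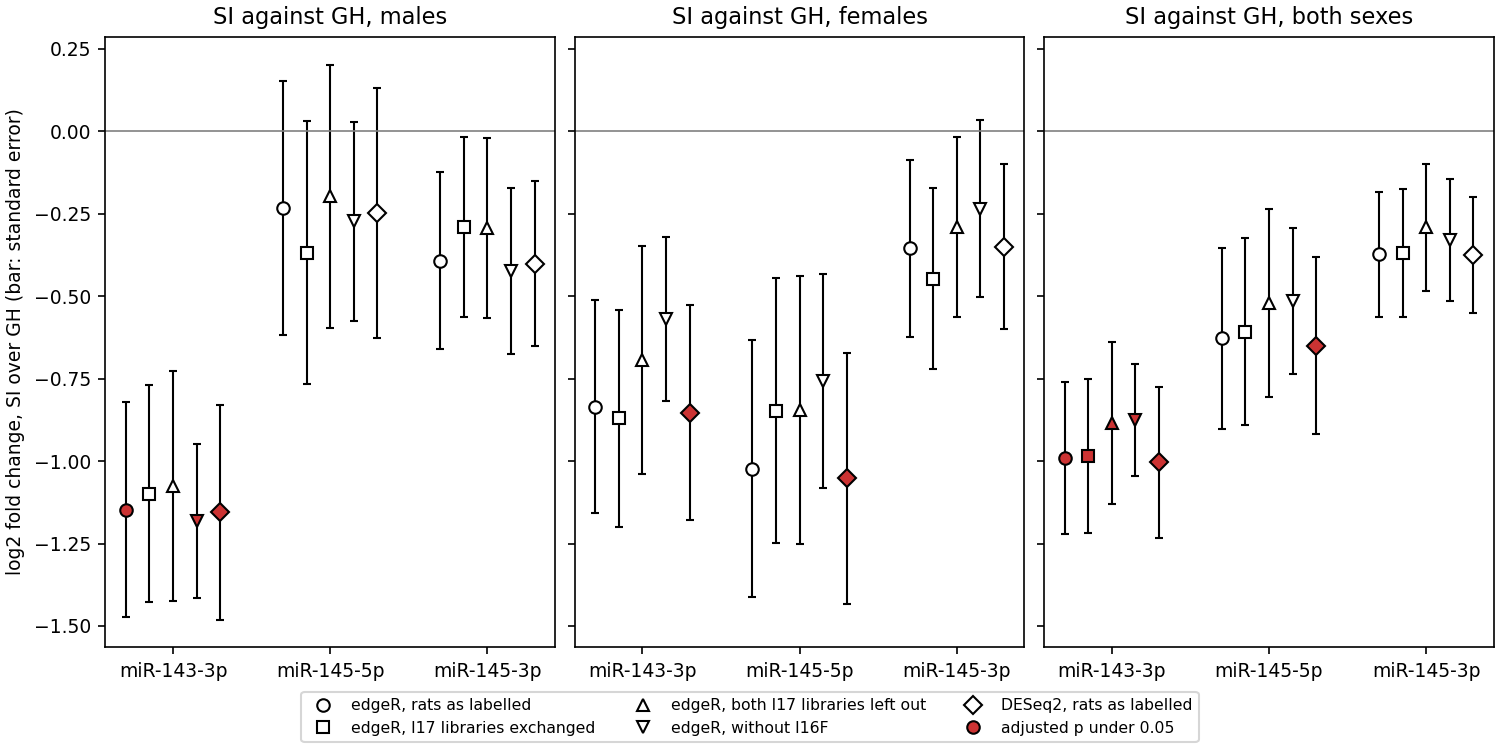
The vertical axis gives the log2 fold change of SI over GH for 3 members in males, in females, and over both sexes, with bars for the standard error and filled symbols for an adjusted p under 0.05; the symbols stand for edgeR with the rats as labelled, with the I17 libraries exchanged or left out, without I16F, and for DESeq2. Over both sexes miR-143-3p lies between −1.0 and −0.88 in all 5 fits, and miR-145-3p passes the threshold in none of the panels.

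miR-145-5p, usually taken as the guide strand of Mir145, was not called in either sex by edgeR. In GH males its level was 148, 192, 96.8, 95.7, and 97.5 RPM, and in SI males 110, 125, 130, 85.6, and 85.7 RPM, in the order of rats used for miR-143-3p. The male groups overlapped, and the median was 97.5 RPM in GH and 110 RPM in SI. The log2 fold change in males was −0.23 (standard error 0.39, adjusted p = 0.84, edgeR), with an approximate 95% interval from −0.99 to 0.52. In GH females the level was 141, 100.5, 196, 131, and 183 RPM. In SI females it was 140, 113, 37.7, 60.2, and 18.4 RPM. The same 3 rats as for miR-143-3p, I17F, I12F, and I16F, were below the lowest GH female.

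The log2 fold change of miR-145-5p in females was −1.02 (standard error 0.39, adjusted p = 0.12, edgeR), and DESeq2's Wald test gave −1.05 (adjusted p = 0.037). Over both sexes it was −0.63 (standard error 0.27, adjusted p = 0.11) by edgeR and −0.65 (adjusted p = 0.046) by DESeq2. The sexes did not pass the test of a difference for this member either, with an interaction of −0.79 (standard error 0.55, adjusted p = 0.81, edgeR).

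miR-145-3p, usually taken as the passenger arm of Mir145, had a standard deviation of 0.40 on the log2 scale over all 20 rats. It was 0.80 for miR-143-3p and 0.81 for miR-145-5p. Among SI males, at 0.44, miR-145-3p was the most variable of these 3 members. Its level was 71.5, 78.8, 96.5, 75.0, and 93.4 RPM in GH males and 66.4, 88.1, 50.2, 40.2, and 71.4 RPM in SI males. Of the SI males, 4 were below the lowest GH male and I19M was within the GH range. In females it was 111, 82.5, 120, 100.04, and 65.7 RPM in GH rats and 99.4, 94.5, 63.3, 63.1, and 54.5 RPM in SI rats. Here too I17F, I12F, and I16F were below the lowest GH female. The log2 fold change was −0.39 in males (standard error 0.27, adjusted p = 0.42), −0.35 in females (standard error 0.27, adjusted p = 0.50), and −0.37 over both sexes (standard error 0.19, adjusted p = 0.18, edgeR in each). The approximate 95% interval over both sexes ran from −0.74 to −0.0019. It is narrower than the test implies, since the unadjusted p was 0.061 (edgeR's quasi-likelihood test).

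miR-143-5p, the passenger arm of Mir143, was at the edge of detection and is given in reads. It had reads in 8 of 20 libraries, which were 3 reads in the GH male G20M, 21 and 52 in the SI males I15M and I19M, 30, 20, and 5 in the GH females G13F, G15F, and G16F, and 10 and 61 in the SI females I10F and I16F. The rat with the fewest reads of miR-143-3p, I16F, had the most reads of miR-143-5p. It passed the count filter through 6 libraries with at least 10 reads and was called in none of the 5 comparisons by edgeR, with adjusted p between 0.27 and 0.996. The 202 reads held 7 distinct sequences, and no difference between groups was detectable at this depth. Libraries were amplified with 22 cycles of PCR and no molecular identifiers were counted, so the number of molecules behind these reads is not known.

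The ratio of miR-145-5p to miR-143-3p compares the products of the 2 hairpins in 1 library and does not depend on normalization. On the log2 scale it was −7.07 to −6.20 in GH males (median −6.60) and −6.23 to −5.48 in SI males (median −5.63), and only I20M of the SI males was below the highest GH male. The SI males were higher by 0.96 (exact permutation test, two-sided, p = 0.016). The female groups were at −7.09 to −5.73 in GH rats and −7.03 to −6.36 in SI rats, a difference of −0.25 (exact permutation test, two-sided, p = 0.40). The mean difference over the sexes was 0.35 (exact permutation test within sex, p = 0.12, adjusted p = 0.25 over 14 shares and ratios). The difference between the sexes had p = 0.0096, or 0.13 adjusted over the same 14 (permutation of the sex labels within each housing group, two-sided). These differences depend on the I17 libraries, at −5.53 in I17M and −7.03 in I17F. With the 2 exchanged, the SI males ran from −7.03 to −5.48 and overlapped the GH males. The difference was then 0.66 in males and 0.048 in females (exact permutation tests, two-sided, p = 0.095 and 0.86), and the difference between the sexes went from −1.21 to −0.61 (permutation p = 0.21, adjusted p = 0.77). With both left out, it was 0.92 in males (exact permutation test, p = 0.024), and that between the sexes was −1.11 (permutation p = 0.025, adjusted p = 0.34).

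The ratio of the arms of Mir145, miR-145-3p over miR-145-5p, was compared in the same way. In females the log2 ratio was −1.48 to −0.29 in GH rats (median −0.39) and −0.50 to 1.56 in SI rats (median 0.07), with I16F at the top. The difference was 0.97 in females and −0.24 in males (exact permutation tests, two-sided, p = 0.056 and 0.48). Over both sexes it was 0.36 (exact permutation test within sex, p = 0.25, adjusted p = 0.44). With the I17 libraries exchanged it was 0.60 in females and 0.13 in males, and with both left out 0.86 and −0.17 (exact permutation tests, two-sided, p between 0.079 and 0.78). Among 5 rats against 5, the smallest p that this test can give is 0.0079. Over all 20 rats the median log2 ratio was −0.37, so the arms were close in reads. miR-145-3p had more reads than miR-145-5p in the SI females I17F (0.75), I12F (0.067), and I16F (1.56).

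The reads of each member fall into sequence forms (isomiRs), which differ at the ends. miR-143-3p had 520 forms, of which 5 held at least 5% of its 1231674 reads, and the exact reference sequence was only the fourth. The leading forms are shown with the seed in capitals, because all of them share it and differ only in the last bases.
22 bases, shortened by 1 base with 1 added T: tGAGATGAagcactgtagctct
21 bases, shortened by 1 base: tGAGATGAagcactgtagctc
20 bases, shortened by 2 bases: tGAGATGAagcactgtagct
22 bases, reference: tGAGATGAagcactgtagctca
They held 50.1%, 22.5%, 8.28%, and 5.40% of the reads over all rats, and another form, with 2 added T, held 5.39%. Nucleotides had been added at the 3′ end of 61.9% of miR-143-3p reads, and 58.6% carried only added T. In the libraries as a whole, 14.3 to 16.7% of miRNA reads had added nucleotides. The 5′ end was the annotated one in 98.3% of miR-143-3p reads, so nearly all of them keep the seed shown above.

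**Figure D3:**
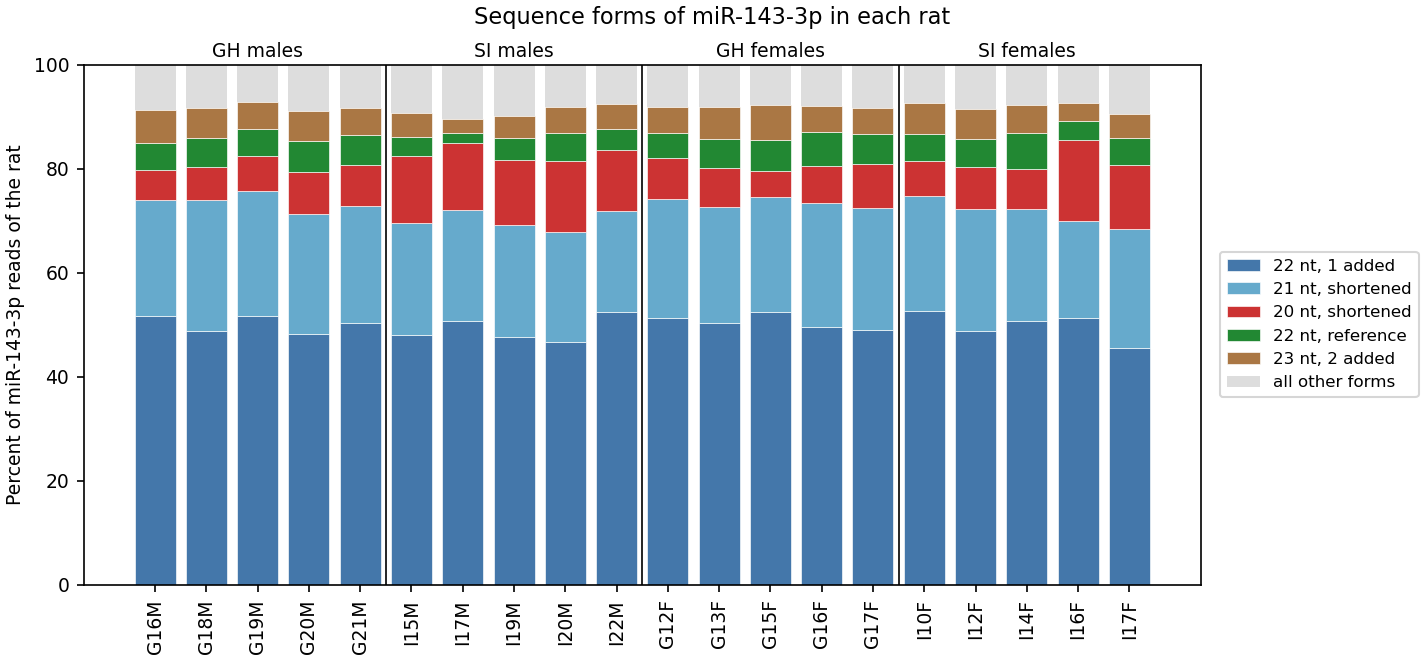
Each bar is 1 rat, grouped by housing and sex, and the vertical axis gives the percent of its miR-143-3p reads in the 5 leading forms, with all other forms in gray. The 20-base form makes up 11.7 to 13.5% in SI males and 5.67 to 8.22% in GH males, while the leading form stays between 45.5 and 52.6% in all 20 rats.

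The 20-base form made up 5.67, 6.73, 6.32, 8.22, and 7.96% of miR-143-3p reads in GH males and 13.04, 12.5, 11.7, 12.8, and 13.5% in SI males, with no overlap. The 21-base form and the form with 2 added T also separated the males, both with lower shares in SI rats (19.3 to 21.5% against 22.3 to 25.2%, and 2.69 to 4.96% against 5.05 to 6.35%). Thus 3 of the 5 leading forms separated the males, where the share of a form in its miRNA did so for 229 of 10290 forms (2.23%), many of them with no reads in some libraries. With the I17 libraries exchanged, 2 of the 5 did, the 20-base form among them. In GH females it made up 4.94 to 8.41%, and in SI females 7.78, 6.72, 12.1, 8.11, and 15.6% (I14F, I10F, I17F, I12F, and I16F). The SI females I17F and I16F, which were the lowest of the SI females in miR-143-3p, had shares above the lowest SI male. These shares were read off for forms chosen by size and were not tested one by one.

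The wider measure, the share of miR-143-3p reads with a templated change of the 3′ end and no added nucleotide, was tested. It was 29.1 to 33.2% in GH males and 33.3 to 37.2% in SI males, a difference of 4.25 percentage points (exact permutation test, two-sided, p = 0.0079). The female groups were at 28.3 to 33.6% in GH rats and 30.4 to 37.5% in SI rats, a difference of 2.37 points (exact permutation test, two-sided, p = 0.22). With the I17 libraries exchanged, the differences were 4.46 points in males and 2.17 in females, and with both left out 4.16 and 1.49. Over both sexes the difference was 3.31 points (exact permutation test within sex, p = 0.0048, adjusted p = 0.067). None of the 14 shares and ratios passed the threshold after adjustment over both sexes, and 6 had an unadjusted exact permutation p under 0.05. Among all miRNA reads, the same share was 34.9 to 37.5% in GH males and 33.9 to 36.6% in SI males, with the lower median in SI males.

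As single forms, all 5 leading forms of miR-143-3p had log2 fold changes below 0 over both sexes, from −1.40 for the reference form to −0.62 for the 20-base form. The fold change of the 20-base form in males was −0.42 (standard error 0.31), against −1.33 (standard error 0.40) for the leading form, and neither was called (adjusted p = 0.86 and 0.27, edgeR). Of 110 forms of the members that were tested, 103 were below 0 over both sexes with a median of −1.25, 44 had an unadjusted p under 0.05, and 0 were called. In this comparison 26 of 10290 forms (0.253%) were called, 1441 (14%) had an unadjusted p under 0.05, and 5655 (55%) were below 0, with a median of −0.091. In males 1 of 10290 forms (0.00972%) was called and in females 0 (0%, with 949 at an unadjusted p under 0.05), none of them a member's form. Without I10F, 12 of 105 forms of the members were called over both sexes, where 247 of all 10018 forms were called. Without I16F, 9 of 110 were, where 75 of all 10140 were called. Forms of a member share its precursor and its libraries, so they are not independent.

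miR-145-3p mostly started downstream of its annotated 5′ end. Only 17.5% of its 10172 reads started at the annotated base, 21.4% started 1 base downstream, and 60.2% started 2 bases downstream, whereas the annotated start held 98.5% of miR-145-5p reads. A shift of the start moves the seed, which is why these forms are shown, each with bases 2 to 8 in capitals.
annotated start, 22 bases: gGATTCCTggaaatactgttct
1 base downstream, 22 bases: gATTCCTGgaaatactgttctt
2 bases downstream, 21 bases: aTTCCTGGaaatactgttctt
They held 13.5%, 14.5%, and 37.7% of the reads of miR-145-3p. The seeds of the shifted forms, AUUCCUG and UUCCUGG, were those of no mature miRNA in the RefSeq table.

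**Figure D4:**
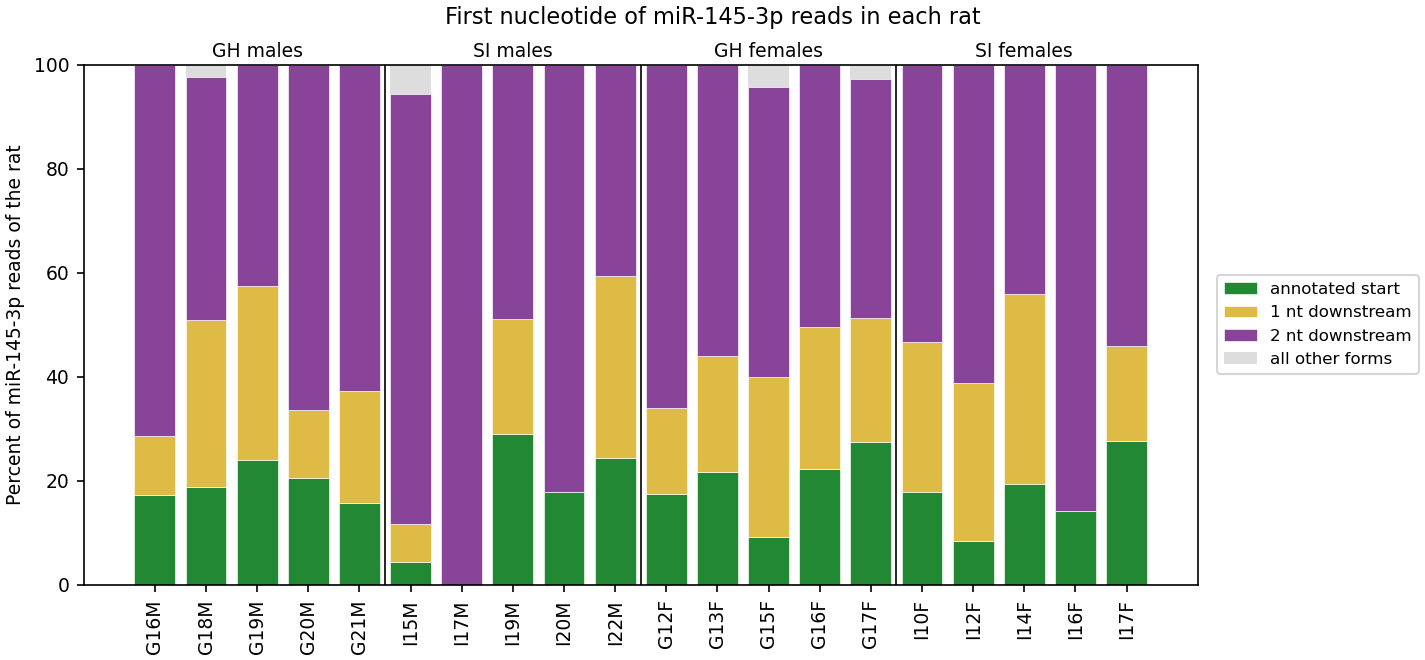
Each bar is 1 rat, grouped by housing and sex, and the vertical axis gives the percent of its miR-145-3p reads that start at the annotated base, 1 nucleotide (nt) downstream, or 2 nt downstream, with all other starts in gray. Starts 2 nt downstream make up 40.7 to 100% of the reads, and the annotated start reaches at most 28.9% in any rat.

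The shifted start was found in every rat. Starts 2 bases downstream made up 42.5 to 71.5% of miR-145-3p reads in the GH group and 40.7 to 100% in the SI group of males, and 46.0 to 65.97% and 44.0 to 85.9% in those of females. The share with any changed 5′ end differed by 3.16 percentage points between SI and GH rats (exact permutation test within sex, p = 0.38, adjusted p = 0.60). Single libraries held 226 to 900 reads of miR-145-3p, and forms were missing altogether from some of them, such as all forms but those 2 bases downstream from I17M. miR-145-5p was mostly the exact reference sequence, at 31.25 to 94.5% of its reads in single rats (median 71.8%).

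The levels of the 2 guide strands were compared from rat to rat. Over 20 rats, miR-143-3p and miR-145-5p had a Pearson r of 0.76 (permutation p = 0.00025, adjusted p = 0.00075 over 6 pairs) and a Spearman rho of 0.64 (permutation p = 0.0032, adjusted p = 0.0096). Without the 2 rats farthest from the median of miR-143-3p, I17M and I16F, r was 0.58. As deviations from the 4 group means, r was 0.84 (permutation p = 5e-05, adjusted p = 0.0003), and 0.72 without I16F. That permutation exchanged the deviations freely among all 20 rats, though the SI females spread more widely than the other groups. Their standard deviations on the log2 scale were 1.10 and 1.19 for the 2 miRNAs, against 0.23 to 0.46 elsewhere. The p for the deviations may therefore be too small. Within 1 kind of housing, r was 0.35 in the 10 GH rats (permutation p = 0.33), 0.74 in the 10 SI rats (permutation p = 0.016), and 0.42 in SI rats without I16F (permutation p = 0.25), and none of these 3 passed after adjustment (adjusted p = 0.66, 0.080, and 0.43).

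miR-143-3p was also compared with miR-145-3p. Pearson's r was 0.77 (permutation p = 0.0001, adjusted p = 0.0006) and Spearman's rho 0.75 (permutation p = 0.00025, adjusted p = 0.0015) over 20 rats, and r was 0.71 without the same 2 rats. It was 0.68 in GH rats (permutation p = 0.029) and 0.69 in SI rats (permutation p = 0.027), with adjusted p of 0.17 and 0.080. The arms of Mir145 had an r of 0.47 with each other (permutation p = 0.037, adjusted p = 0.074) and a rho of 0.53 (permutation p = 0.016, adjusted p = 0.032), with r at 0.36 without I17F and I16F and at −0.0022 in GH rats alone. The 3 pairs with miR-143-5p had r from −0.33 to 0.16 and rho from −0.063 to 0.30, none of them passing, and that member was at 0 in 12 of 20 libraries.

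**Figure D5:**
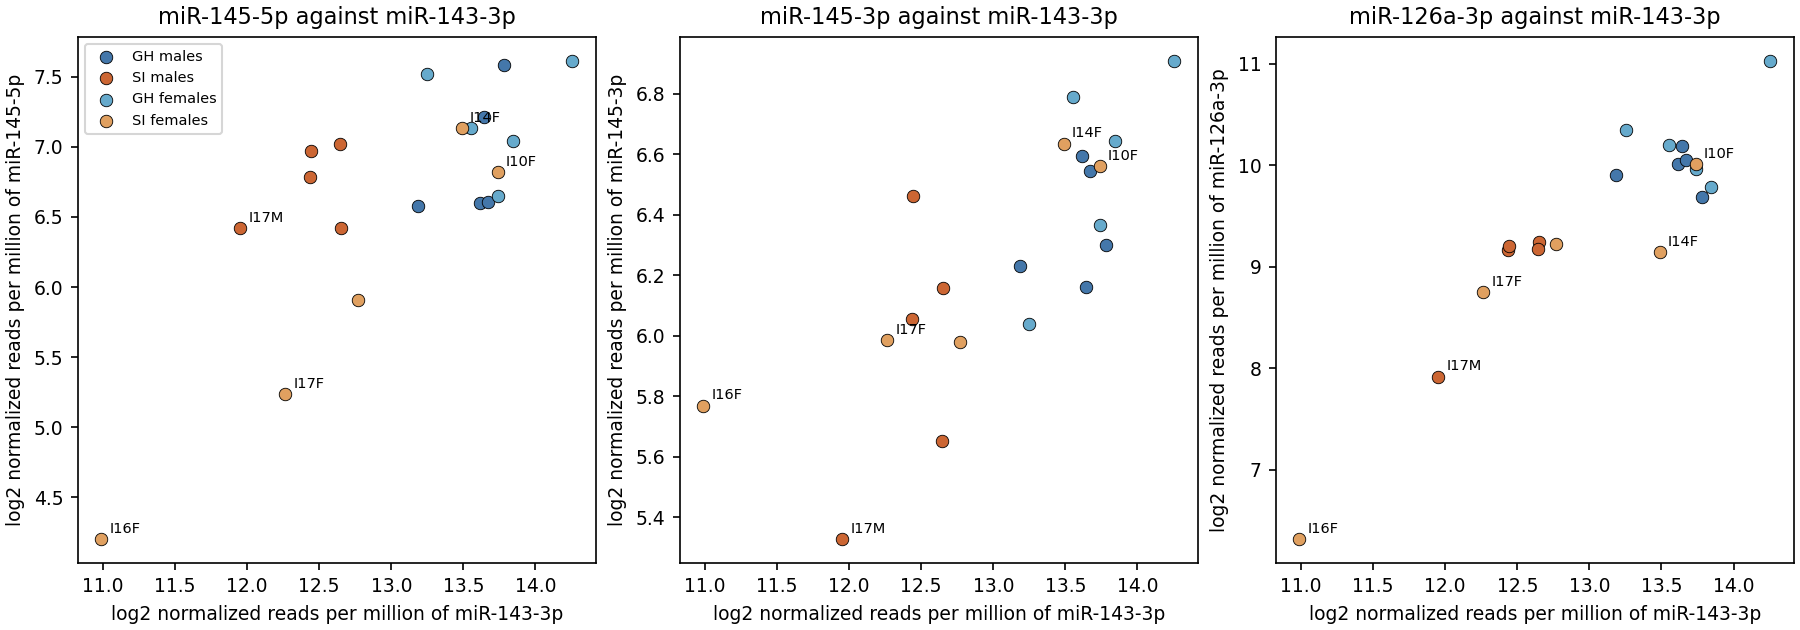
Each point is 1 rat, colored by group, with the log2 RPM of miR-143-3p on the horizontal axis and that of miR-145-5p, miR-145-3p, or the endothelial miR-126a-3p on the vertical axis. I16F lies at the lower left of the panels of miR-145-5p and miR-126a-3p, I10F and I14F lie among or near the GH rats, and r over 20 rats is 0.76, 0.77, and 0.91.

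The miRNAs with the level most like that of miR-143-3p over the 20 rats, by Pearson's r of log2 values, were miR-411-5p (0.94), miR-99a-5p (0.93), miR-30e-5p (0.93), miR-27a-3p (0.93), and miR-29a-3p (0.91). Without I16F the values of r were 0.86 to 0.91. All 5 were lower in SI rats over both sexes, with log2 fold changes from −1.19 to −0.72 and adjusted p from 0.0039 to 0.013 (edgeR). Those most like miR-145-5p were miR-338-3p (0.88), miR-31a-5p (0.88), miR-153-3p (0.86), miR-380-3p (0.84), and miR-29a-3p (0.83), and without I16F r was 0.66 to 0.76. These are descriptions over 20 libraries that share their housing groups and their normalization. The members themselves were left out of this ranking. With miR-143-3p, r was 0.76 for miR-145-5p and 0.77 for miR-145-3p, lower than for each of the 5 miRNAs listed for it.

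Marker miRNAs of the other cell types in a punch were read beside these results. Of the endothelial list, 2 of 3 miRNAs had reads, and 1 of these was called over both sexes, where 88 of 500 miRNAs (17.6%) were called. miR-126a-3p, which is abundant in endothelial cells, fell by 1.11 on the log2 scale in SI rats (standard error 0.28, adjusted p = 0.011, edgeR). Its level was 825 to 1171 RPM (GH males), 242 to 605 RPM (SI males), 882 to 2092 RPM (GH females), and 79.9 to 1034 RPM (SI females). miR-126a-5p had −0.63 (standard error 0.48, adjusted p = 0.40). I16F and I17M had the lowest levels of both miR-126a-3p and miR-143-3p, and r between the 2 miRNAs was 0.91 over 20 rats. An r of similar size with miR-143-3p was found in other lists, at 0.89 for miR-338-3p (oligodendrocytes) and −0.87 for miR-486 (blood). In the neuronal list it was 0.78 for miR-124-3p and 0.31 for miR-9a-5p. The summed endothelial list was 880 to 1231 RPM in GH males and 259 to 698 RPM in SI males, against 947 to 2234 RPM and 79.9 to 1096 RPM in GH and SI females, and its part in the result for miR-143-3p was not tested.

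The list of muscle and perivascular miRNAs other than the cluster gave little signal. Of its 8 miRNAs, 5 had reads, and their summed level was 42.2 to 64.9 RPM (GH males), 54.7 to 156 RPM (SI males), 55.4 to 101.9 RPM (GH females), and 60.6 to 89.2 RPM (SI females). Its largest member, miR-199a-3p (mean 57.5 RPM), had a fitted difference of 0.31 on the log2 scale over both sexes (standard error 0.23, adjusted p = 0.38, edgeR), and miR-1-3p, the classic miRNA of heart and skeletal muscle (mean 7.37 RPM), had 1.04 (standard error 0.60, adjusted p = 0.25). None of the 5 was called in males, in females, or over both sexes, and 3 of the 8 had no reads. Of all 500 miRNAs, 4%, 0.4%, and 17.6% were called in these comparisons.

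Among the blood miRNAs, 10 of 10 had reads and 9 were tested. Their summed level was higher in SI males, at 2227 to 4066 RPM against 1492 to 1953 RPM in GH males, and in SI females it was 2051 to 5106 RPM against 1523 to 2752 RPM. miR-486 made up most of it and rose by 0.92 on the log2 scale over both sexes (standard error 0.19, adjusted p = 0.0039, edgeR), while miR-150-5p, a lymphocyte miRNA, had 0.0011 (adjusted p = 0.996). miR-451-5p, the red cell miRNA, had a mean of 8.28 RPM and no reads in 4 libraries. Of the 9 tested, 3 were below 0 over both sexes, with a median log2 fold change of 0.094. In females 6 were below 0 (median −0.54), and in males 2 were (median 0.72). The blood list thus had 1 called member of 9 tested, higher in SI rats, where 17.6% of all 500 miRNAs were called. Its part in the result was not tested.

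The choroid plexus list had 8 of 9 with reads and 5 tested, none called over both sexes or in either sex. Over both sexes, 17.6% of all 500 miRNAs were called. Its leading miRNAs were miR-204-5p, with a log2 fold change of 0.69 (adjusted p = 0.35), and miR-204-3p, with 1.24 (adjusted p = 0.076, edgeR). Its summed level ran from 861 to 2496 RPM (GH males), 1108 to 18649 RPM (SI males), 1261 to 5339 RPM (GH females), and 876 to 4181 RPM (SI females). The neuronal list had 5 of 5 tested and none called, with miR-9a-5p at 0.094 (adjusted p = 0.73) and miR-128-3p at 0.23 (adjusted p = 0.34), the 2 with the most reads. The other 3 were below 0, namely miR-9a-3p at −0.33 (adjusted p = 0.40), miR-124-3p at −0.41 (adjusted p = 0.10), and miR-124-5p at −0.49 (adjusted p = 0.36), and the median of the list was −0.33. Its summed level was 129396 to 205895 RPM (GH males), 117506 to 181365 RPM (SI males), 124128 to 162057 RPM (GH females), and 85872 to 206503 RPM (SI females).

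The oligodendrocyte list had 4 of 4 tested and 2 called over both sexes, 1 in each direction, where 88 of 500 miRNAs (17.6%) were called. miR-219a-2-3p had a log2 fold change of 0.30 (adjusted p = 0.30, edgeR over both sexes). miR-338-5p rose by 0.89 (adjusted p = 0.0039), and miR-338-3p, from the same hairpin, fell by 1.74 (adjusted p = 0.016, edgeR over both sexes). The fourth, miR-219a-5p, had −2.07 (adjusted p = 0.089, edgeR) at a mean of 10.2 RPM. Thus 2 of the 4 were below 0, and the median of the list was −0.72. The summed level of the oligodendrocyte list was 3817 to 6143 RPM (GH males), 5267 to 9313 RPM (SI males), 3636 to 6511 RPM (GH females), and 3978 to 10097 RPM (SI females). The part of these lists in the result for miR-143-3p was not tested.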

How the data were processed

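Reads of single-end small RNA libraries were trimmed by the authors with cutadapt and aligned to rat miRBase with seqbuster, within the bcbio-nextgen pipeline. The deposited files hold, for each of 20 libraries, raw counts per sequence, each with its assigned miRNA, mismatch, added nucleotides, and end changes, with a lowest count of 2. The submitters' notes also name FastQC and STAR. Versions of these tools are not given in the sources used here. No units other than counts were used.

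Counts were summed by miRNA name and by form. miRNAs and forms with at least 10 counts in at least 5 libraries were fitted with edgeR 4.0.16 in R 4.3.3, with TMM and the quasi-likelihood test on a model of 4 groups, and adjusted by Benjamini-Hochberg over all features tested, with a threshold of 0.05. Standard errors were taken from the log2 fold change and F, and approximate intervals are 1.96 standard errors. DESeq2 1.42.0 (Wald test) and limma 3.58.1 (voom) were alternatives. Correlations used log2 RPM with a pseudocount of 1 and 100000 permutations. Exact permutation tests covered 63504 assignments within sex. The edgeR step was tested on simulated data. Python 3.11.15, numpy 2.4.6, pandas 2.3.3, scipy 1.17.1, and matplotlib 3.10.9 were used.

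Members, marker lists, and tests were chosen with earlier results of these data known. The named miRNAs are the members, the 5 most correlated with each guide strand, their neighbors in level, the 2 with the most reads in each list, and forms with at least 5% of a member's reads. miR-451-5p, miR-9a-3p, miR-124-3p, miR-124-5p, and miR-219a-5p were named after their values were seen. Of 190 library pairs, none was a copy of another (lowest chi-square per degree of freedom 78.5). Counting error only is covered, since no molecular identifiers were counted.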

Additional observations from a re-analysis of the deposited data

Results flagged for a closer look

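Of 72 sets of 5 values that were examined for a rat far from the others, 11 held one, and chance alone picks out about 1 in 20 such sets. That rate does not apply to 5 of the 11, in which the other 4 rats were all at 0 (miR-143-5p in GH males and the exact reference of miR-145-3p in each group). In GH males, G20M was lowest in miR-143-3p, at 13.18 on the log2 RPM scale, with the next rat at 13.62. G20M was also the 1 GH male with reads of miR-143-5p (3 reads), and I16F stood apart among SI females with 61 reads of that arm. Among SI males, I20M had the lowest log2 ratio of miR-145-5p to miR-143-3p (−6.23, next −5.65), and I22M had the lowest share of miR-143-3p reads with a templated change of the 3′ end (33.3%, next 36.5%). For miR-145-5p, G13F had the lowest share of exact reference reads among GH females (59.9%, next 70.7%), and G18M had the highest share of reads with a changed 5′ end among GH males (7.41%, next 2.83%). The exact reference sequence of miR-145-3p was found in only 1 rat of each group, at 0.96% of its reads in G20M, 6.20% in I20M, 2.01% in G16F, and 6.32% in I17F. No share or ratio differed between the sexes in its response to housing after adjustment over 14 tests (lowest adjusted p = 0.13, permutation test).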

How the results depend on the processing

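The number of miRNAs called in males, 20 as labelled, was 60 by DESeq2, 61 by DESeq2 with the I17 libraries exchanged, 87 by voom, 40 with at least 10 counts in every library, 84 with only the groups compared, 11 with the I17 libraries exchanged, 13 with both left out, and 7 (without I15M) to 73 (without I16F) with 1 rat left out. In females, 2 as labelled, it was 67, 80 by DESeq2 with the exchange, 40 with at least 10 counts in every library, 0 with only the groups compared, 5 exchanged, 0 with both I17 left out, and 1 (without G16M) to 63 (without I10F) with 1 rat left out. Over both sexes, 88 as labelled, it was 50 with both I17 left out and 58 (without G16F) to 117 with 1 rat left out. For the interaction, 2 as labelled, it was 0 with DESeq2 size factors, 6 by DESeq2, 0 by DESeq2 with the exchange, 0 exchanged, 1 with both I17 left out, and 0 to 2 with 1 rat left out. Between the sexes in GH rats DESeq2 called 5, and 3 with the exchange. Forms called over both sexes, 26 as labelled, were 5 with the exchange and 4 (without G16M) to 247 (without I10F) with 1 rat left out, of which 0 to 12 belonged to members. The cause of these shifts was not tested.

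miR-143-3p in males lost its call with the I17 libraries exchanged (−1.10), with both left out (−1.08), and in 14 of 20 fits without 1 rat (−1.27 to −1.08 over all 20). In the 10 rats with shared numbers it was called neither in males nor over both sexes, with a block by number or without. In females it was called by DESeq2 (−0.85), by DESeq2 with the exchange (−0.89), without I10F (−1.11, with −0.57 at the other end), and in the 10 rats with shared numbers fitted without a block (−1.58). miR-145-5p was called in females by DESeq2 (−1.05) and in the same 10 rats (−2.0), by DESeq2 over both sexes (−0.65), and by edgeR over both sexes without I14F (−0.81, the other end being −0.52). In males it was 0.048 by voom. The interaction of miR-145-3p was −0.16 with the I17 libraries exchanged, −0.15 by DESeq2 with the exchange, and −0.086 to 0.19 with 1 rat left out. The templated 3′ share of miR-143-3p differed by 2.87 to 3.76 points with 1 rat left out and passed without I19M, I22M, G12F, I14F, or I10F (adjusted exact permutation p from 0.016 to 0.043). The exact reference share of miR-143-3p passed without G12F or I14F, the changed 5′ share of miR-145-5p without I19M or G12F, and the added and templated shares of miR-145-3p without I19M (adjusted exact permutation p from 0.016 to 0.047). The templated 3′ share of miR-145-5p ran from −3.47 to 1.23 points. Its added share was 0.0795 points with both I17 left out, and the changed 5′ share of miR-143-3p was −0.0104 points without mismatched reads. The alternatives of DESeq2 with the exchange, of correlations within groups, and of the shares and ratios within a sex with the I17 libraries moved were chosen after seeing the data.

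Pearson's r between miR-143-3p and miR-145-5p was 0.35 in GH rats, 0.74 in SI rats, and 0.42 in SI rats without I16F, and that with miR-145-3p was 0.68, 0.69, and 0.75. The arms of Mir145 had −0.0022 in GH rats. miR-143-5p had 0.25 with miR-143-3p and 0.10 with miR-145-5p in GH rats, 0.028 and 0.40 in SI rats without I16F, and 0.23 with miR-145-5p without the 2 farthest rats.

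The labels give some GH and SI rats the same animal number (19M, 20M, 12F, 16F, and 17F). The deviations of same-numbered rats correlated at −0.11, −0.0085, 0.10, −0.40, and −0.046, and the main fits did not pair the rats by number. Each of these correlations comes from 1 pair of libraries, so they cannot show that the numbers carry no pairing. With the replicate block on these 10 rats, 0 miRNAs were called in males, females, both sexes, and the interaction, and 0 forms. Without the block on the same rats, 0, 46, 20, and 0 miRNAs and 0 forms were called. With the block, miR-143-3p was −0.89 in males and −1.28 over both sexes (adjusted p = 0.19, edgeR), with an interaction of −0.78. In that fit miR-145-3p was 0.089 in males, with an interaction of −0.59. In the same rats without the block, miR-143-3p was −0.92 in males (adjusted p = 0.72) and −1.58 in females (adjusted p = 0.046, edgeR). Over both sexes it was −1.25 (adjusted p = 0.065, edgeR), with an interaction of −0.67. Without the block, miR-145-5p was −2.0 in females (adjusted p = 0.040, edgeR), and miR-145-3p was 0.093 in males, with an interaction of −0.64.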
